A study of Mus musculus with 9 samples.

Results

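The genes described here are 9 transcription regulators of muscle stem cells and muscle fibres, named Pax7, Myf5, Myod1, Myf6, Mef2a, Mef2c, Mef2d, Six4 and Eya1. They were taken by symbol from a table of read counts for 17314 genes in mouse gastrocnemius, the large calf muscle. All 9 were in the table, and all 9 were among the 13044 genes that passed the filter on low counts. Tissue was taken at 6, 15 and 21 months of age from 3 mice each, and every mouse gave 1 library. The labels name no strain, sex or treatment, so age is the only stated difference between the groups. The study set muscle aging beside a thyroid hormone receptor, and the comparisons here ask whether these regulators differ with age.

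Skeletal muscle is repaired by satellite cells, stem cells that lie beside the fibres under the basement membrane and are marked by the paired-box factor Pax7. When they are activated, basic helix-loop-helix (bHLH) factors act in sequence, with Myf5 and Myod1 committing the cells to muscle, Myog driving differentiation and Myf6 acting late and persisting in mature fibres. MEF2 proteins bind DNA beside these factors and switch on contractile genes, while homeobox proteins of the sine oculis family, such as Six4, and their Eya co-activators act upstream of them and favour the fast fibre programme.

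Total counts ranged from 15354396 to 17317856 per library. The fibre genes Acta1, Ckm, Mylpf, Des and Ttn together reached 50596 to 74605 CPM (counts scaled to a common library size with TMM) in the 9 libraries. Levels of the satellite cell markers differed widely, with Itga7, an integrin that fibres also express, at 109 to 141 CPM and Calcr, a receptor of quiescent satellite cells, at 0.57 to 1.38 CPM. A set of 3 libraries stood apart on the axis of largest variance, mouse 2 at 6 months at -48.0, mouse 1 at 15 months at 27.6 and mouse 3 at 21 months at 26.7. These libraries also held the lowest and the 2 highest levels of slow fibre genes, so values without them are given where they change a direction.

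None of the 9 regulators passed an adjusted p under 0.05 in any comparison of ages by edgeR's quasi-likelihood test with Benjamini-Hochberg adjustment over all tested genes. The count of members called was 0 of 9 at 21 against 6 months, where 0.0153% of all tested genes were called. It was 0 of 9 at 15 against 6 months, where 0.00767% of all genes were called, and 0 of 9 at 21 against 15 months, where 0% were. A joint test of the 3 ages called 0 of 9 members and 0% of all genes. At an unadjusted p under 0.05 the count was also 0 of 9 in each of these 4 tests, against 10.6, 10.3, 1.82 and 8.55% of all genes in the same order, and DESeq2 called 0 of 9 members in each, against 1.53, 0.892, 0.023 and 1.56% of the genes it tested. The lowest adjusted p of a member was 0.495 at 21 against 6 months, 0.588 at 15 against 6 months and 0.99987 at 21 against 15 months. With 3 mice per age these tests do not show that levels were alike, and the 95% intervals below give the changes that remain possible.

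At 21 against 6 months, 3 members had a log2 fold change above 0 and 6 below, with a median of -0.09, beside a median of -0.01 over all tested genes. At 15 against 6 months, 2 lay above 0 and 7 below (median -0.18, all genes -0.01). At 21 against 15 months, 6 lay above 0 and 3 below (median 0.12, all genes -0.003). The comparisons share groups, so these counts are not separate from each other.

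**Figure D1:**
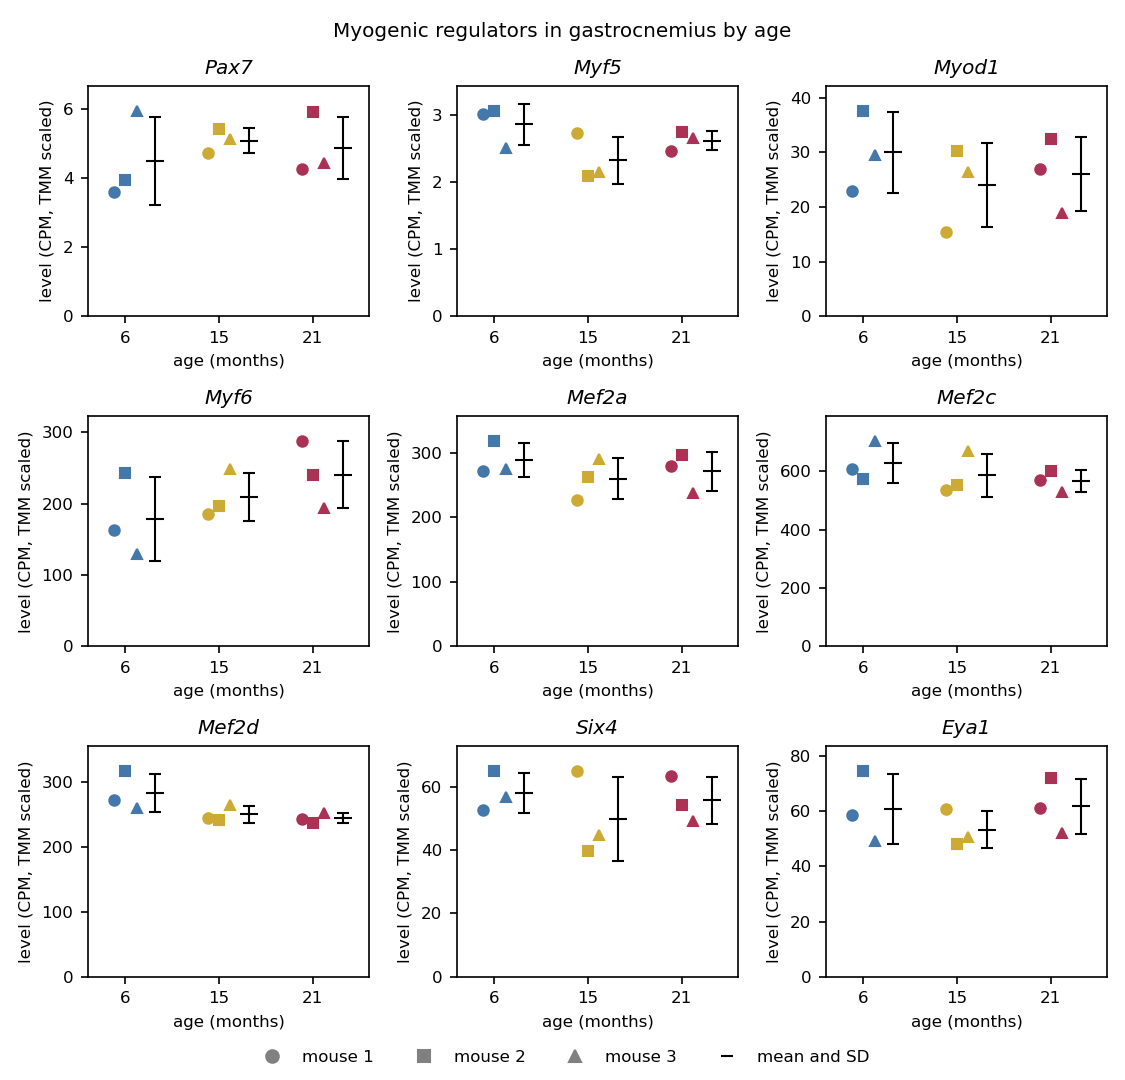
Level of each of the 9 regulators (CPM after TMM scaling, linear axes from 0) in each library by age in months. Symbols mark mouse 1, 2 and 3, and black bars give the mean and SD of 3 mice. The ages overlap in every panel except Mef2d, where the 21-month mice (238 to 254 CPM) lie below the 6-month mice (261 to 318 CPM).

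**Figure D2:**
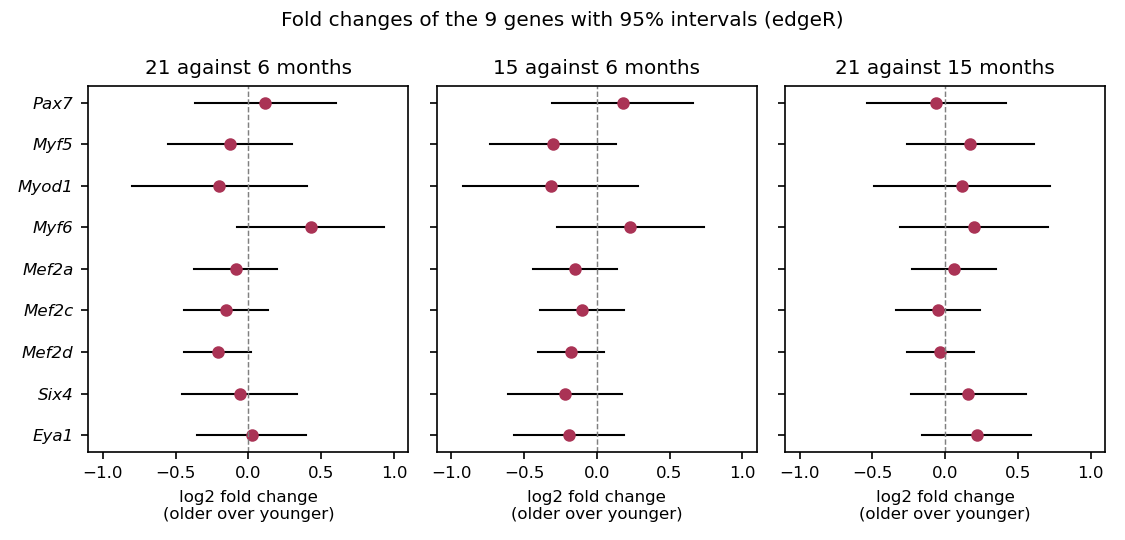
Log2 fold change of the older over the younger age for each regulator in 3 comparisons, with 95% intervals from the edgeR fit. Each interval includes 0, and Myf6 at 21 against 6 months reaches highest, to 0.93.

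Levels of different genes can be compared per exon length. Exon lengths were taken as the merged exons of all transcripts in GENCODE M21 and need not be those expressed in muscle. Myf6 was highest at a mean of 166 CPM per kb of exon (SD 38.9 over 9 libraries), above Mef2d at 43.4 (SD 4.11), Mef2c at 37.8 (SD 3.83), Mef2a at 18.6 (SD 1.94) and Myod1 at 14.35 (SD 3.68) CPM per kb. Eya1 stood at 7.501 (SD 1.24), Six4 at 5.03 (SD 0.829), Myf5 at 1.25 (SD 0.162) and Pax7 at 0.822 (SD 0.144) CPM per kb. The stem cell genes were thus the lowest of the 9 and the late fibre factor Myf6 the highest. The order of neighbours was the same in 9 of 9 libraries, except that Mef2d lay above Mef2c in 8 of 9. Ranges over libraries overlapped between Mef2d and Mef2c, Mef2a and Myod1, Myod1 and Eya1, and Myf5 and Pax7, and did not for the other neighbours.

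**Figure D3:**
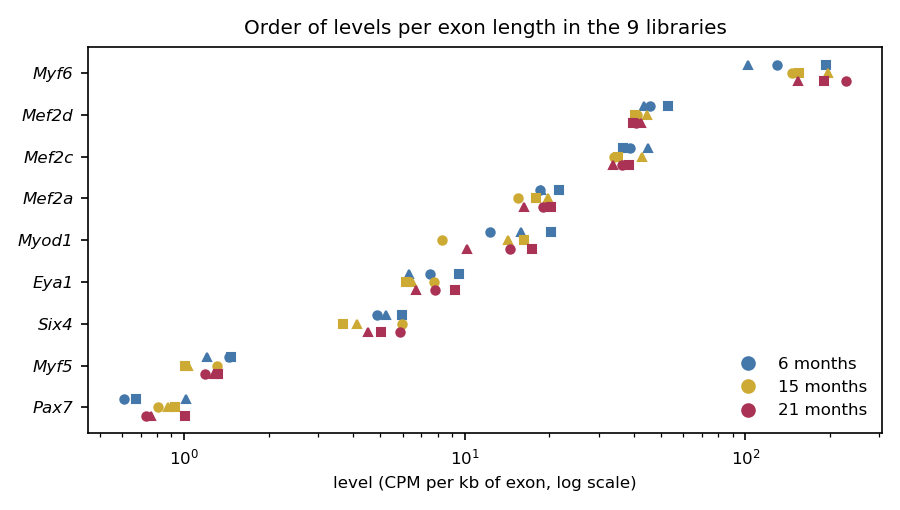
Level of each regulator per kb of exon (CPM per kb, log axis) in the 9 libraries, ordered by mean. Colours mark age and symbols mark mouse 1 (circle), 2 (square) and 3 (triangle). Myf6 spans 102 to 228 CPM per kb and Pax7 spans 0.61 to 1.01 CPM per kb.

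Pax7, the factor that defines satellite cells (gene ID 18509, located on chromosome 4 from 139737059 to 139833530 in GRCm38.p6), stood at 3.58, 3.94 and 5.95 CPM at 6 months, 4.71, 5.42 and 5.12 CPM at 15 months, and 4.27, 5.91 and 4.45 CPM at 21 months. The 3 ages overlapped, and the lowest and the highest library were both from 6-month mice. Pax7 had a log2 fold change at 21 over 6 months of 0.12 with an SE of 0.22 and a 95% interval of -0.37 to 0.60 (adjusted p = 0.889 by edgeR), and at 15 over 6 months of 0.18 with an SE of 0.22 and an interval of -0.31 to 0.66 (adjusted p = 0.803 by edgeR). In bulk muscle, the number of satellite cells and the Pax7 RNA per cell cannot be told apart.

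Myf5, the earliest bHLH factor of the lineage (gene ID 17877, located on chromosome 10 from 107482908 to 107486927), measured 3.02, 3.07 and 2.51 CPM at 6 months, 2.73, 2.10 and 2.15 CPM at 15 months, and 2.46, 2.74 and 2.66 CPM at 21 months. The 6-month and 15-month mice overlapped only through mouse 3 at 6 months and mouse 1 at 15 months. Myf5 had a log2 fold change at 21 over 6 months of -0.13 with an SE of 0.19 and a 95% interval of -0.55 to 0.30 (adjusted p = 0.860 by edgeR), and at 15 over 6 months of -0.30 with an SE of 0.19 and an interval of -0.73 to 0.13 (adjusted p = 0.628 by edgeR). Counting error matters for these rare transcripts. Myf5 had 34 to 49 reads per library, so that counting alone gives an SD of 15.4% of the mean, and the SD measured within ages was 10.8%. Pax7 had 57 to 99 reads, with a counting error of 11.3% and a measured SD within ages of 19.2%. Myf5 and Myf6, the lowest and the highest bHLH member, lie 5920 bases apart on the same strand.

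Myod1, which commits satellite cells to muscle and is also higher in fast than in slow fibres of rodents (gene ID 17927, located on chromosome 7 from 46376474 to 46379092), measured 22.9, 37.6 and 29.4 CPM at 6 months, 15.4, 30.3 and 26.4 CPM at 15 months, and 26.9, 32.4 and 18.9 CPM at 21 months. The 3 ages overlapped widely, and the range within each age was larger than the differences between the means of 29.97 ± 7.38, 24.1 ± 7.72 and 26.1 ± 6.79 CPM (SD, n = 3 each). Myod1 had the widest relative spread of the 9 members, with its highest library 2.44 times its lowest, wider than in 83.7% of all tested genes. Myod1 had a log2 fold change at 21 over 6 months of -0.20 with an SE of 0.27 and a 95% interval of -0.80 to 0.40 (adjusted p = 0.842 by edgeR), and at 15 over 6 months of -0.32 with an SE of 0.27 and an interval of -0.92 to 0.29 (adjusted p = 0.724 by edgeR). Without the 3 libraries that stand apart these values turned to 0.18 and 0.12.

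The Myod1 extremes were the same 3 libraries that lay at the extremes of slow fibre genes. Mouse 2 at 6 months had the highest Myod1 of the 9 libraries (37.6 CPM) and the lowest summed level of 8 slow fibre genes (71.9 CPM). Mouse 1 at 15 months had the lowest Myod1 (15.4 CPM) and the highest slow fibre sum (999 CPM), and mouse 3 at 21 months had the next lowest Myod1 (18.9 CPM) and the next highest sum (903 CPM). Between these extremes the other 6 libraries held 22.9 to 32.4 CPM of Myod1 at sums of 169 to 518 CPM, with no common order. All 8 slow fibre genes (Myh7, Tnnt1, Tnnc1, Tnni1, Myl2, Myl3, Atp2a2 and Casq2) were detected in every library. Their sum ranged over 71.9 to 196 CPM at 6 months, 298 to 999 CPM at 15 months and 189.97 to 903 CPM at 21 months. Their part in the spread of Myod1 was not tested.

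**Figure D4:**
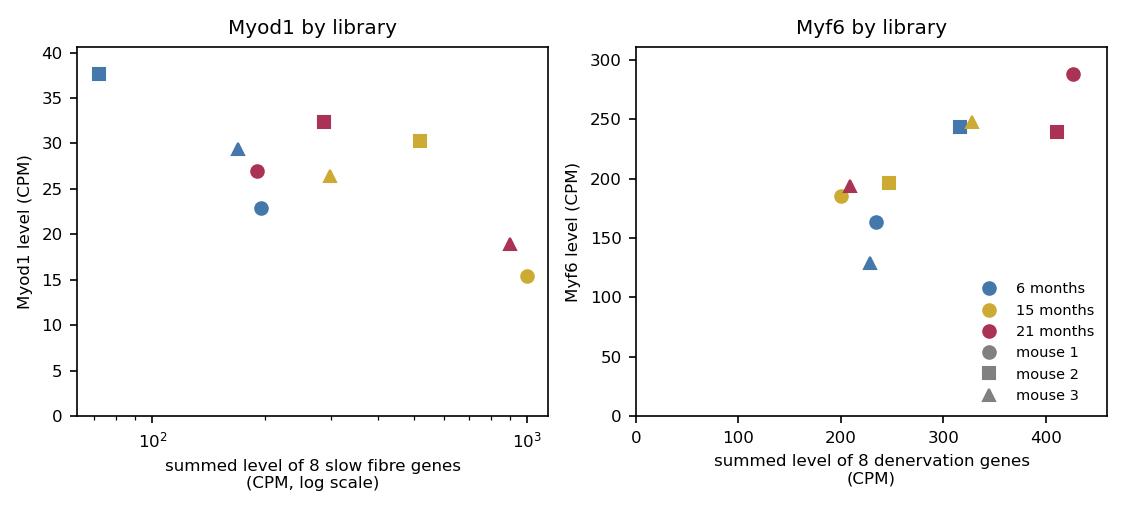
Left, Myod1 level (CPM) against the summed level of 8 slow fibre genes (CPM, log axis) in each library, where Myod1 is highest at 71.9 CPM of the sum and lowest at 999 CPM. Right, Myf6 level against the summed level of 8 denervation genes (CPM), where the highest Myf6 (288 CPM) lies at the highest sum (426 CPM). Colours mark age and symbols mark the mouse.

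Myf6, also called MRF4, the bHLH factor of mature fibres (gene ID 17878, located on chromosome 10 from 107492848 to 107494723), had the largest fold change of the 9 at 21 against 6 months. It stood at 163, 244 and 129 CPM at 6 months, 185, 196 and 248 CPM at 15 months, and 288, 239.8 and 194 CPM at 21 months. The means were 179 ± 58.7, 209.8 ± 33.6 and 240.5 ± 47.1 CPM in that order of age (SD, n = 3 each), and the 21-month and 6-month groups overlapped through mouse 2 at 6 months. Myf6 had a log2 fold change at 21 over 6 months of 0.43 with an SE of 0.23 and a 95% interval of -0.08 to 0.93 (adjusted p = 0.535 by edgeR), a 1.35-fold difference that did not pass. For 15 over 6 months the value was 0.23 with an interval of -0.28 to 0.74 (adjusted p = 0.764 by edgeR), and for 21 over 15 months it was 0.20 with an interval of -0.31 to 0.70. Without the 3 libraries that stand apart the value at 21 against 6 months was 0.85 (adjusted p = 0.167), the lowest adjusted p of any member under any of 17 alternatives, over which that of Myf6 in this comparison ran up to 0.826. Without mouse 2 at 6 months the value was 0.71, without mouse 3 at 6 months it was 0.25 and without mouse 1 at 21 months it was 0.28.

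Musk encodes the receptor kinase of the neuromuscular junction, whose expression increases in denervated muscle. It measured 168, 258 and 147 CPM at 6 months, 136, 192 and 265 CPM at 15 months, and 340.3, 331 and 151 CPM at 21 months, and was singled out after its values were seen. The library highest in Myf6 was also highest in Musk, and the 4 libraries highest in Myf6 were the 4 highest in Musk. The 8 denervation genes, of which 7 passed the filter and Chrng, the fetal acetylcholine receptor subunit, reached at most 14 reads, summed to 229 to 316 CPM at 6 months, 200.2 to 328 CPM at 15 months and 209 to 426 CPM at 21 months. Musk made up 64.2 to 81.6% of that sum, and its part in the Myf6 values was not tested.

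Myf6 took most of the reads of the myogenic bHLH genes in every library. Among reads of Myf5, Myod1, Myf6 and Myog together, its share was 84.1, 83.3 and 77.8% at 6 months, 89.4, 84.7 and 88.8% at 15 months, and 89.5, 85.7 and 88.2% at 21 months. Each 21-month and each 15-month share lay above each 6-month share. Shares depend on no scaling of libraries, but a share of one gene falls where another rises, and this comparison was made after the values were seen and has no test. The share of Myod1 was 11.8, 12.9 and 17.7% at 6 months, 7.45, 13.1 and 9.46% at 15 months, and 8.37, 11.6 and 8.61% at 21 months, so that the ages 15 and 6 months overlapped there.

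The MEF2 genes encode partners of the bHLH factors. Mef2d (gene ID 17261, located on chromosome 3 from 88141941 to 88172091) stood at 273, 318 and 261 CPM at 6 months, 246, 242 and 266 CPM at 15 months, and 244, 238 and 254 CPM at 21 months. It was the single member whose groups did not overlap, with all 21-month mice below all 6-month mice. That is 1 of 9 members or 11.1%, against 16.1% of all tested genes whose groups did not overlap in that comparison and 8.31% that were lower without overlap. At 15 against 6 and 21 against 15 months 0 of 9 members had groups that did not overlap, against 13.8% and 6.14% of all genes. Its log2 fold change at 21 against 6 months was -0.21 (SE 0.10, 95% interval -0.44 to 0.02, adjusted p = 0.495, edgeR), and at 15 against 6 months it was -0.18 (SE 0.10, -0.41 to 0.05, adjusted p = 0.588). The value at 21 against 6 months was -0.13 without mouse 2 at 6 months and -0.12 with total count scaling. The narrow interval reflects an SD within ages of 7.45% of the mean, the smallest of the 9. The summed fibre genes were also lower in the older mice. Their sum was 68239 to 74605 CPM at 6 months, 50596 to 67189 CPM at 15 months and 53270 to 59319 CPM at 21 months. Most of that sum was Acta1, at 20876 to 31276 CPM over the 9 libraries, and Ckm, at 14163 to 22658 CPM. Of the 5 genes, Des had log2 fold changes above 0 at 21 and 15 against 6 months (0.09 in both), and 4 were below. None passed in edgeR, with a lowest adjusted p of 0.406, for Mylpf at 21 against 6 months. The part of these genes in the Mef2d levels was not tested.

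Mef2c (gene ID 17260, located on chromosome 13 from 83504017 to 83667079) had the highest counts of the 9. It stood at 609, 574 and 705 CPM at 6 months, 535, 553 and 671 CPM at 15 months, and 569.9, 602 and 528 CPM at 21 months. Mouse 3 at 6 months was highest and the ages overlapped. Mef2c had a log2 fold change at 21 over 6 months of -0.15 with an SE of 0.13 and a 95% interval of -0.44 to 0.14 (adjusted p = 0.722 by edgeR), and at 15 over 6 months of -0.10 with an SE of 0.13 and an interval of -0.39 to 0.19. Mef2a (gene ID 17258, located on chromosome 7 from 67231163 to 67376456) stood at 271, 318 and 275 CPM at 6 months, 226, 263 and 290.2 CPM at 15 months, and 279, 297 and 238 CPM at 21 months. Like Myod1, Mef2a was highest in mouse 2 at 6 months and lowest in mouse 1 at 15 months and mouse 3 at 21 months. Mef2a had a log2 fold change at 21 over 6 months of -0.09 with an SE of 0.13 and an interval of -0.37 to 0.20 (adjusted p = 0.858 by edgeR), and at 15 over 6 months of -0.15 with an SE of 0.13 and an interval of -0.44 to 0.14, and without the 3 libraries that stand apart these values turned to 0.08 and 0.02.

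Mef2c held the largest share of MEF2 reads in every library. It took 52.8, 47.4 and 56.8% of the reads of the 3 genes at 6 months, 53.1, 52.3 and 54.7% at 15 months, and 52.2, 52.9 and 51.8% at 21 months. The 15-month and 21-month shares all lay within the range of the 6-month shares. Exons of Mef2a share 302 bases with Lysmd4 and exons of Mef2d share 531 bases with an antisense transcript, 1700113A16Rik, both on the opposite strand. The sources used here do not say whether counting used strand, so reads from these stretches, 2.06% of the exon length of Mef2a and 8.87% of that of Mef2d, cannot be assigned to either gene.

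The sequence before an annotated start of Mef2c is shown because this gene had the highest counts of the 9. The window is chr13:83503784-83504033 on the plus strand (GRCm38.p6, from RefSeq), holds no exon of the gene in GENCODE M21, and has in capitals the E-box, the site bound by bHLH factors. The last bases of the window, from 83504017 on, lie inside the span that RefSeq gives the gene and may be transcribed.

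Mef2c: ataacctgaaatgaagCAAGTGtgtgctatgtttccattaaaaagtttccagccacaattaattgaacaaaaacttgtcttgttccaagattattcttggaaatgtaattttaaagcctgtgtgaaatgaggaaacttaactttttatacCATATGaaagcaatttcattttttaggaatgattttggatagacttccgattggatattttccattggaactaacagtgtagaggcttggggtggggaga

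The E-box was searched as CANNTG, which reads the same on both strands, the MEF3 site, bound by Six4 and its relatives, as TCAGGTTTC and the MEF2 site by its consensus, each on both strands and with overlapping matches counted. Of the members, 6 had windows in the table (Pax7, Myf5, Mef2a, Mef2c, Mef2d and Six4), and 5 windows of 4 genes held no exon of their own gene in GENCODE M21. The Mef2c window held 2 E-boxes, beginning 234 and 100 bases before the start, and a window at another Mef2c start held 1. The windows of Myf5, Mef2a and Mef2d held none of the 3 motifs. They lie wholly inside the span that RefSeq gives their gene, downstream of its outer end, so they may be transcribed and are not shown. Among the windows that hold exons of their own gene, 1 of Six4 held 1 MEF3 site, with 211 of its 250 bases in exons. Over 32851 windows of 250 bases, 66.2% held an E-box, 2.92% a MEF2 site and 0.387% a MEF3 site. The absence of a match says only that these letters are not in these windows.

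Six4, a homeobox factor that acts upstream of the bHLH genes (gene ID 20474, located on chromosome 12 from 73099609 to 73114031), measured 52.6, 64.9 and 56.8 CPM at 6 months, 65.0, 39.8 and 44.9 CPM at 15 months, and 63.6, 54.4 and 49.2 CPM at 21 months. The 15-month mice held both the highest and the lowest library. Six4 had a log2 fold change at 21 over 6 months of -0.06 with an SE of 0.18 and a 95% interval of -0.45 to 0.33 (adjusted p = 0.934 by edgeR), and at 15 over 6 months of -0.22 with an SE of 0.18 and an interval of -0.61 to 0.17 (adjusted p = 0.705 by edgeR). The value at 21 against 6 months was 0.02 with total count scaling.

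Eya1, a phosphatase and co-activator of Six4 and its relatives (gene ID 14048, located on chromosome 1 from 14168953 to 14311035), measured 58.4, 74.5 and 49.2 CPM at 6 months, 60.8, 48.2 and 50.6 CPM at 15 months, and 61.1, 72.1 and 52.1 CPM at 21 months. Mouse 2 was highest at both 6 and 21 months, and the ages overlapped. Eya1 had a log2 fold change at 21 over 6 months of 0.02 with an SE of 0.17 and a 95% interval of -0.35 to 0.40 (adjusted p = 0.977 by edgeR), and at 15 over 6 months of -0.19 with an SE of 0.17 and an interval of -0.57 to 0.18 (adjusted p = 0.735 by edgeR).

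For Pax7, Myod1, Myf6 and Six4, whose highest library was at least 1.5 times the lowest, the genes with the most similar pattern over the 9 libraries were found by the root mean square difference of centred log2 CPM among 12301 genes with a mean of at least 1 CPM. Nearest to Pax7 were Ralgps1, Plpp3 and Zfp433, at differences of 0.078 to 0.082. Nearest to Myod1 were Ncoa1, Vgll3 and Sort1, at 0.14 to 0.16, and nearest to Myf6 were Vldlr, Cib1 and Tdrp, at 0.153 to 0.165. Nearest to Six4 were Usp42, 8030462N17Rik and Adprhl2, at 0.072 to 0.092. The median gene lay at 0.29 to 0.41 from these 4 members. The measure favours genes of small spread and says nothing of shared control.

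Around the 9 regulators, 78 genes in 6 lists were examined, of which 69 passed the filter. Of the 69, edgeR called 0 at each of the 3 comparisons and in the joint test. At an unadjusted p under 0.05, 12 of 69 (17.4%) stood out at 21 against 6 months against 10.6% of all genes, with 5 higher and 7 lower. The count was 9 of 69 (13%) at 15 against 6 months against 10.3%, 3 of 69 (4.35%) at 21 against 15 months against 1.82%, and 7 of 69 (10.1%) in the joint test against 8.55%. The lists were chosen with earlier results of these data known, so a share above that of all genes is no test of them. DESeq2 called Cd82 at 21 against 6 months, Myog at 15 against 6 months, no list gene at 21 against 15 months, and Cd82 and Sdc4 in its joint test.

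Among other satellite cell markers, 16 of 17 passed the filter, with Pax3, a relative of Pax7, at 1 to 14 reads per library and not tested. At 21 against 6 months 5 lay above 0 and 11 below, with a median log2 fold change of -0.13, and at 15 against 6 months 5 and 11 with a median of -0.19, beside -0.01 for all genes in both. Several of these markers, such as Cd34, Vcam1 and Notch3, are also expressed by vascular and other cells of muscle. The summed level of the 17 markers was 485 to 521 CPM at 6 months and 453 to 514 CPM at 15 months. It was 483 to 499 CPM at 21 months, so the ages overlapped. The largest parts of the sum were Itga7, at 109 to 141 CPM over the 9 libraries, and Cd34, at 95.6 to 127 CPM. Both are also expressed outside satellite cells, so the sum does not measure these cells alone. The summed level of 7 markers of fibro-adipogenic progenitors, connective tissue cells of muscle, was 2773 to 4042 CPM at 6 months, 2632 to 2723 CPM at 15 months and 2487 to 2659 CPM at 21 months. Most of that sum was Gsn, at 1310 to 2335 CPM over the 9 libraries, and Dcn, at 734 to 1391 CPM, and both genes are also expressed outside these cells. Of the 7, only Gsn had 21-month mice all below the 6-month mice, against 8.31% of all genes. None was without overlap at 15 against 6 months, against 13.8% of all genes. Among these 7 markers, Ly6a and Dpp4 had log2 fold changes above 0 in both comparisons (0.21 and 0.08 for Ly6a, 0.12 and 0.06 for Dpp4). Their part in the levels of the satellite cell markers was not tested.

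Cd82, a tetraspanin of satellite cells that other cells also carry, had the smallest p-value of the list genes. It stood at 15.3, 13.5 and 15.9 CPM at 6 months, 20.7, 23.9 and 24.1 CPM at 15 months, and 53.2, 40.1 and 22.7 CPM at 21 months. All 15-month and all 21-month mice lay above all 6-month mice, while mouse 3 at 21 months lay within the 15-month range. Among all genes, 16.1% had groups without overlap at 21 against 6 months and 13.8% at 15 against 6 months. The log2 fold change at 21 against 6 months was 1.38 (SE 0.25, adjusted p = 0.0741 in edgeR, not passing, and 4.26e-05 in DESeq2), a 2.59-fold difference. It passed in edgeR with no filter (adjusted p = 0.0434), without mouse 3 at 21 months (1.65, adjusted p = 0.0107) and without the 3 libraries that stand apart (1.58, adjusted p = 0.0394), and over all alternatives its adjusted p ran from 4.26e-05 to 0.265. At 15 against 6 months it was 0.62 (SE 0.25, adjusted p = 0.427, edgeR).

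Sdc4, a cell surface proteoglycan of satellite cells, stood at 60.2, 80.05 and 46.5 CPM at 6 months, 39.0, 39.2 and 34.7 CPM at 15 months, and 43.1, 43.8 and 28.0 CPM at 21 months. All older mice lay below all 6-month mice. At 21 against 6 months 8.31% of all genes were lower without overlap, and at 15 against 6 months 13.8% had groups without overlap. Sdc4 had a log2 fold change at 21 over 6 months of -0.70 with an SE of 0.21 (adjusted p = 0.250 by edgeR), and at 15 over 6 months of -0.73 with an SE of 0.21 (adjusted p = 0.3201 by edgeR), and neither passed. Without the 3 libraries that stand apart the value at 21 over 6 months was -0.29 (adjusted p = 0.440 by edgeR).

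Of the differentiation and fusion genes 6 of 8 passed the filter, and Mymk and Mymx, which fuse muscle cells, had at most 5 and 4 reads in any library. Their median log2 fold change was -0.16 at 21 against 6 months (3 above 0, 3 below) and -0.08 at 15 against 6 months (2 above, 4 below). Myog, the factor of terminal differentiation, stood at 5.09, 8.14 and 4.90 CPM at 6 months, 3.78, 2.90 and 2.59 CPM at 15 months, and 4.33, 4.83 and 4.32 CPM at 21 months. The ages did not overlap, with 15 months lowest and 6 months highest. Without overlap were also 16.1% of all genes at 21 against 6 months and 6.14% at 21 against 15 months. Myog had a log2 fold change at 15 over 6 months of -0.97 with an SE of 0.23 (adjusted p = 0.2497 by edgeR, not passing, and 0.0463 by DESeq2), and 13.8% of all genes had groups that did not overlap there. At 21 against 6 months it was -0.43 (SE 0.22, adjusted p = 0.533, edgeR), and it was -0.16 without mouse 2 at 6 months and -0.13 without the 3 libraries that stand apart.

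Actc1, the cardiac actin that developing and regenerating muscle also uses, stood at 58.8, 58.0 and 460.4 CPM at 6 months, 25.3, 17.8 and 9.35 CPM at 15 months, and 29.0, 17.002 and 48.4 CPM at 21 months. Mouse 3 at 6 months was far above the other 8 libraries. Actc1 had a log2 fold change at 21 over 6 months of -2.61 with an SE of 0.79 (adjusted p = 0.257 by edgeR) and at 15 over 6 months of -3.46 with an SE of 0.82 (adjusted p = 0.248 by edgeR), and without that mouse it was -0.885 and -1.73.

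The list of bHLH partners and inhibitors holds the E proteins, which pair with the bHLH factors. It also holds Id, Twist, Hes, Snai, Zeb and other proteins listed as inhibitors, and 17 of its 18 genes were tested. Of these, at 21 against 6 months, 14 lay above 0 and 3 below, with a median of 0.22, and at 15 against 6 months 12 and 5, with a median of 0.13. All tested genes had 6262 above 0 and 6782 below at 21 against 6 months, with a median of -0.01. At an unadjusted p under 0.05 in edgeR, 1 gene of the list was higher and 1 lower there. Tcf3, which encodes the E proteins E12 and E47, stood at 14.1, 14.5 and 15.0 CPM at 6 months, 16.1, 16.2 and 15.5 CPM at 15 months, and 17.7, 17.06 and 17.04 CPM at 21 months. The 3 ages did not overlap and followed the order of age, over a small range. The SD of Tcf3 within ages was 2.58% of the mean, below the 6.22% that counting alone gives. Groups did not overlap in 16.1% of all genes at 21 against 6 months, 13.8% at 15 against 6 and 6.14% at 21 against 15. Tcf3 had a log2 fold change at 21 over 6 months of 0.25 with an SE of 0.09 (adjusted p = 0.348 by edgeR), which did not pass. Hes1, a Notch target that holds satellite cells quiescent, had a log2 fold change at 21 over 6 months of -0.40 with an SE of 0.17 (adjusted p = 0.435 by edgeR) and at 15 over 6 months of 0.03.

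Of the MEF2 family and co-regulators 18 of 19 were tested, and 6 lay above 0 and 12 below at both 21 and 15 against 6 months, with medians of -0.04 and -0.11. Crebbp, an acetyltransferase that MEF2 and the bHLH factors recruit, had a log2 fold change at 21 over 6 months of -0.25 with an SE of 0.12, and at 15 over 6 months of -0.37 with an SE of 0.12. Camk2b, a calcium-dependent kinase that acts on the deacetylases holding MEF2 back, had 0.37 (SE 0.14) and 0.31 (SE 0.14) in the same comparisons, and neither gene passed (adjusted p from 0.352 to 0.497, edgeR). Without the 3 libraries that stand apart Crebbp was -0.10 at 21 over 6 months, and without mouse 3 at 15 months Camk2b was 0.13 at 15 over 6 months.

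All 8 listed relatives and cofactors of Six4 and Eya1 were tested, with 3 above 0 and 5 below in each of the 3 comparisons. Six2, a homeobox relative of Six4, stood at 12.2, 23.6 and 10.9 CPM at 6 months, 2.05, 8.38 and 9.54 CPM at 15 months, and 9.25, 10.5 and 3.83 CPM at 21 months. Its lowest libraries were mouse 1 at 15 months and mouse 3 at 21 months and its highest was mouse 2 at 6 months, as for Myod1. Six2 had a log2 fold change at 21 over 6 months of -0.98 with an SE of 0.51, and at 15 over 6 months of -1.22 with an SE of 0.52, and without the 3 libraries that stand apart these were -0.22 and -0.36. Dach1, a cofactor in the same network, had 0.50 (SE 0.18) and 0.32 (SE 0.18), and neither gene passed (adjusted p from 0.346 to 0.571, edgeR). Without the 3 libraries that stand apart Dach1 was 0.24 and 0.12.

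Of the cell cycle genes 4 of 8 passed the filter, and the other 4 (Top2a, Ccnb1, Cdk1 and Birc5) had at most 36 reads in any library. Mki67, a marker of proliferating cells, had a log2 fold change at 21 over 6 months of -1.76 with an SE of 0.75 (unadjusted p = 0.0398 and adjusted p = 0.437 by edgeR), and its groups overlapped. Ccna2, a cyclin of dividing cells with 5 to 27 reads per library, had -1.099 with an SE of 0.41 (unadjusted p = 0.0218 and adjusted p = 0.370 by edgeR), with all 21-month mice below all 6-month mice. Both were highest in mouse 1 at 6 months (3.08 and 1.70 CPM) and were named after their values were seen. Of all genes, 8.31% were lower without overlap at 21 against 6 months. Pcna, the clamp of DNA replication and repair, was the most abundant of the list, at 27.1 to 42.5 CPM. It had a log2 fold change of 0.13 (SE 0.15) and Mcm5, a subunit of the replicative helicase, -0.14 (SE 0.33) at 21 against 6 months. None of the 4 passed, with adjusted p of 0.804 for Pcna and 0.919 for Mcm5 in edgeR.

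**Figure D5:**
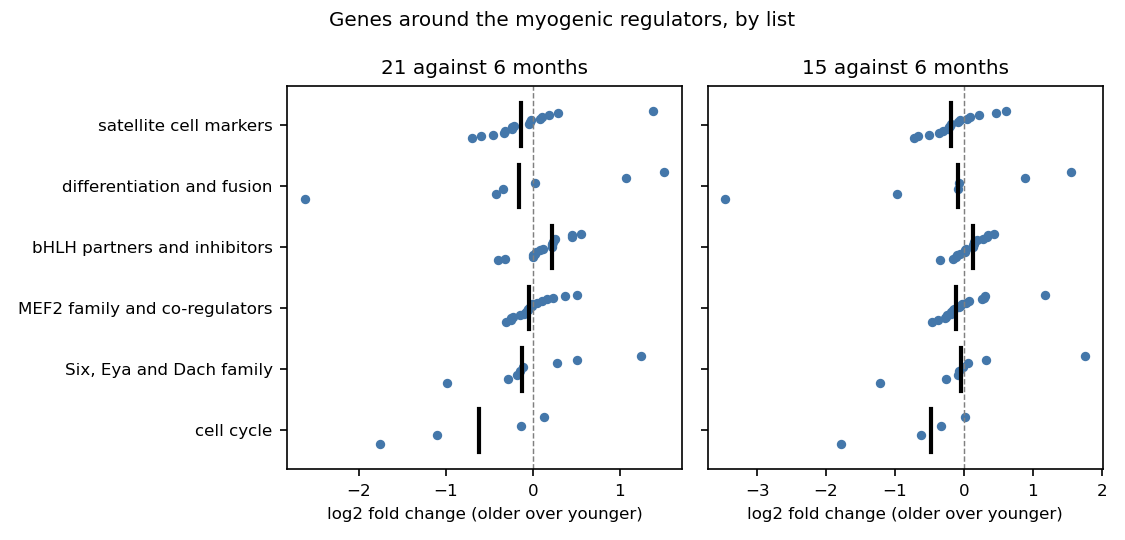
Log2 fold change of the tested genes of 6 lists around the regulators, at 21 against 6 months (left) and 15 against 6 months (right). Each point is a gene and black bars give the list median, which runs from -0.62 for cell cycle genes to 0.22 for bHLH partners and inhibitors at 21 against 6 months, and none of the genes passed the threshold in edgeR.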

How the data were processed

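RNA of 9 gastrocnemius samples was extracted with TRIzol, selected with oligo(dT) beads and sequenced from DNA nanoballs, per the labels' protocols. The authors deposited 1 table of estimated counts per gene, in which 90.0 to 90.7% of the values of a library were whole within 0.005. The submitters' processing notes name mm10, and the sources used here name no aligner, counter, annotation or strand setting. Estimated counts share reads between similar genes. Each column was assigned through its life stage and number, and 0 columns belonged to other samples.

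Counts were rounded, filtered with filterByExpr (minimum count 10) and scaled with TMM. The edgeR model (version 4.0.16, R 4.3.3) had age as its factor and used the 9 libraries together, with 6 residual and 4.24 prior degrees of freedom, and p-values were Benjamini-Hochberg adjusted over 13044 genes and called under 0.05. Intervals are 95% intervals of the fit. The procedure was tested on simulated data with changes larger than any of a member in the main fit. That test does not bear on differences as small as those of the members. Alternatives were DESeq2 1.42.0, RLE and total count scaling, no filter, at least 5 CPM in 3 libraries, a block for replicate number, fits of 2 ages alone, and leaving out each library or the 3 that stand apart. Coordinates and promoter windows come from RefSeq tables of GRCm38.p6 (UCSC mm10), where 17188 of 17314 IDs were found.

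The members and lists were chosen with earlier results of these data known. Beside the 9 members, list genes past the threshold and the 2 per list with the smallest joint p at a mean of at least 1 CPM are named. Further genes are named as markers, as the 3 nearest in pattern (those of Eya1 are not reported here), or as singled out after their values were seen (Musk, Mki67, Top2a, Ccna2, Myh3 and fibro-adipogenic markers).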

Additional observations from a re-analysis of the deposited data

How the results depend on the processing

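The count of members called stayed at 0 of 9 in each comparison under each of the 17 alternatives, and the 456 fold changes of members computed there had adjusted p of 0.167 or more. Myf5 did not reach 5 CPM and has no value under that filter. Reversed signs belonged to differences that were not called. Without the 3 libraries that stand apart, Myod1 was 0.18 at 21 against 6 months and 0.12 at 15 against 6 months, Mef2a 0.076 and 0.020, and Six4 0.11 at 21 against 6 months, while Mcm5 was -0.14 at 21 against 15 months. With total count scaling Six4 was 0.024 at 21 against 6 months. The cause was not tested.

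List genes called numbered 0 in edgeR. At 21 against 6 months the count was 1 with DESeq2, without the 3 libraries and without a filter, and 0 to 1 when leaving out a library. At 15 against 6 months it was 1 with DESeq2, and in the joint test 2 with DESeq2 and 0 to 1 when leaving out a library.

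Leaving out each library in turn turned the sign of some values. At 21 against 6 months Pax7 ranged from -0.045 to 0.38, Eya1 from -0.10 to 0.19, Six4 from -0.17 to 0.023, Mcm5 from -0.33 to 0.18 and Pcna from -0.0065 to 0.31. At 15 against 6 months Hes1 ranged from -0.044 to 0.14 and Pcna from -0.11 to 0.20. At 21 against 15 months Pax7 ranged from -0.22 to 0.027, Myod1 from -0.12 to 0.32, Mef2a from -0.029 to 0.15, Mef2c from -0.11 to 0.059, Mef2d from -0.061 to 0.0085, Sdc4 from -0.080 to 0.21, Six2 from -0.19 to 0.59 and Camk2b from -0.045 to 0.24.

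Over all genes edgeR called 2 at 21 against 6 months, 1 at 15 against 6 months and 0 at 21 against 15 months and jointly, and DESeq2 called 200, 114, 3 and 204. At 21 against 6 months the count was 30 without a filter and 1 under total count scaling, at 15 against 6 months it was 0 under total count scaling, the stricter filter and with only the groups compared, and in the joint test it was 5 with no filter. Leaving out a library gave 0 to 42, 0 to 10, 0 and 0 to 10, with the highest counts without mouse 3 at 6 months.

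The replicate numbers pair no samples by the labels, and same-numbered libraries correlated from -0.42 to 0.41 in their deviations from the age means, against -0.37 to 0.40 for other pairs. With the replicate block, 0 of 9 members and 0 list genes were called, 5 genes in all at 21 against 6 months, 0 at 15 against 6 months and 5 in the joint test, and Sdc4 was -0.0020 at 21 against 15 months. At 34 to 99 reads per library, counting error limits Pax7 and Myf5.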

Other observations

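Mki67 and Top2a, both rare transcripts of dividing cells, were highest in a single young mouse. Mki67 stood at 3.08, 1.25 and 0.245 CPM at 6 months, 0.682, 0.308 and 0.316 CPM at 15 months, and 0.240, 0.418 and 0.679 CPM at 21 months. Top2a, a topoisomerase of replicating cells, stood at 2.26, 0.876 and 0.368 CPM at 6 months, and between 0.185 and 0.505 CPM at 15 months. At 21 months Top2a lay between 0.240 and 0.358 CPM. Mouse 1 at 6 months was highest for both, and also for Ccna2 (1.70 CPM) and Mcm5 (2.64 CPM) of the same list. It was highest too for Ccnb1, Cdk1 and Birc5, which had at most 8, 8 and 10 reads in any library. Only Pcna of that list was highest elsewhere, in mouse 2 at 6 months (42.5 CPM). The bulk tissue does not show which cells these were, and the genes were named after their values were seen. The level of Pax7 in that mouse, 3.58 CPM, was the lowest of the 9 libraries.

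Myh3, the embryonic myosin that regenerating fibres express, was low in all libraries and varied widely. It stood at 2.07, 1.38 and 0.429 CPM at 6 months, 6.38, 3.21 and 1.77 CPM at 15 months, and 0.901, 3.997 and 6.18 CPM at 21 months. Its highest libraries were mouse 1 at 15 months and mouse 3 at 21 months, those with the highest slow fibre sums. Its log2 fold change was 1.51 at 21 against 6 months and 1.55 at 15 against 6 months, and the unadjusted p was 0.0599 and 0.0544 in edgeR's test across all genes, with adjusted p of 0.480 and 0.493.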
